A study of Mus musculus with 6 samples.

Results

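The genes described here encode the receptors for GABA, glutamate, glycine and acetylcholine in mouse dorsal root ganglia (DRGs), which hold the cell bodies of the sensory neurons that serve the trunk and limbs. Members were chosen by symbol alone, as the rows of the deposited gene table whose names belong to the GABA-A and GABA-rho, GABA-B, AMPA, NMDA, kainate, delta, metabotropic glutamate, glycine, nicotinic and muscarinic families. The rule found 75 of the 57180 rows. Of these, 73 were receptor genes and 2 (Grin1os and Chrna1os) were RNAs from the strand opposite a receptor gene. The study sequenced mRNA from the T8-L2 ganglia of 6 wild-type (WT) mice, 1 library each, 3 after a sham operation and 3 after ischemia-reperfusion (I/R) of the kidney. In the I/R mice blood flow to the left kidney was stopped by a clamp on its pedicle for 28 min before reperfusion, and the right kidney was taken out. Per the labels' protocols the sham mice had the same surgery without the clamp, which read literally includes removal of the right kidney. Both groups were under Zoletil anesthesia, and all ganglia were taken 24 h after surgery. The comparison asks how these ganglia differ in mice with an injured kidney. Because each library is a whole ganglion sample, fewer cells of a type and less RNA per cell cannot be told apart.

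As background, ionotropic receptors are ion channels opened by the transmitter itself: AMPA, kainate and NMDA receptors pass cations on binding glutamate, GABA-A and glycine receptors pass chloride, and nicotinic receptors pass cations on binding acetylcholine. The metabotropic glutamate, GABA-B and muscarinic receptors act through G proteins. Sensory neurons are themselves glutamatergic, and many of these receptors sit on their central terminals in the spinal cord, where they set how much transmitter is released. In sensory neurons GABA-A receptors usually depolarize, because the chloride importer NKCC1 keeps internal chloride high.

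The libraries held 19092650 to 22010227 expected counts, so that 3 counts, the most that a count of 0 allows, stood for 0.137 to 0.154 CPM (counts scaled to the size of their library). Summed levels of 16 sensory neuron markers were 20978 to 22703 CPM in sham against 20033 to 23098 CPM in I/R libraries, with no marker called. A sum of 10 skeletal muscle markers was 562 CPM in sham 1 and 282 CPM in sham 3, against 4.94 to 14.7 CPM in the other 4 libraries, and 7 spinal cord glia markers were also highest in sham 1 and sham 3 (44.9 and 30.4 CPM against 10.3 to 14.5 CPM). The summed fibroblast and meningeal markers were 691 to 838 CPM in sham against 351 to 415 CPM in I/R libraries, with 8 of 9 genes called lower. Schwann cell markers (6582 to 6865 against 5597 to 6287 CPM) and satellite glia markers (1448 to 1563 against 1220 to 1415 CPM) were also lower in I/R libraries than in any sham library. Of the 8 satellite glia markers 1 was called, Fabp7, at 126 to 195 CPM in sham against 66.3 to 85.2 CPM in I/R libraries. Without Fabp7 the satellite glia sums of the groups overlap. Macrophage markers summed to 41.3 to 43.5 CPM in sham against 51.6 to 52.7 CPM in I/R libraries. The part of any of these in the receptor values was not tested. Levels are compared between genes as RPKM, counts scaled to library size and divided by the length column of the deposited table, whose basis is not stated.

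Per unit of length, 2 receptor genes stood above the rest of the set. Gabbr1, which binds GABA in the GABA-B receptor, averaged 125 ± 7.20 RPKM (SD, n = 6), and Grik1, the kainate receptor subunit GluK1, averaged 113 ± 14.8 RPKM. In sham libraries these 2 overlapped, at 114 to 128 RPKM for Gabbr1 and 117 to 131 RPKM for Grik1. In I/R libraries Gabbr1 lay above Grik1, at 119 to 132 against 87.4 to 111 RPKM. Next came Gabbr2, the obligate partner of Gabbr1, at 49.3 ± 7.16 RPKM, and the nicotinic subunit Chrnb2 at 49.0 ± 3.37 RPKM. The obligate NMDA subunit Grin1 followed at 43.7 ± 4.81 RPKM. The spreads of these 3 overlap, although Chrnb2 lay above Grin1 in every library. The glycine receptor beta subunit Glrb averaged 34.1 ± 3.26 RPKM, and Grm7, Grik5, Chrna6 and Chrna7 lay between 18.1 and 21.2 RPKM. The set reached down to 3 genes with no count in any library: Gabra6, a GABA-A subunit best known from cerebellar granule cells, Glra4, and Chrng, the fetal muscle nicotinic subunit. Those 3 were not detected at this depth.

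**Figure D1:**
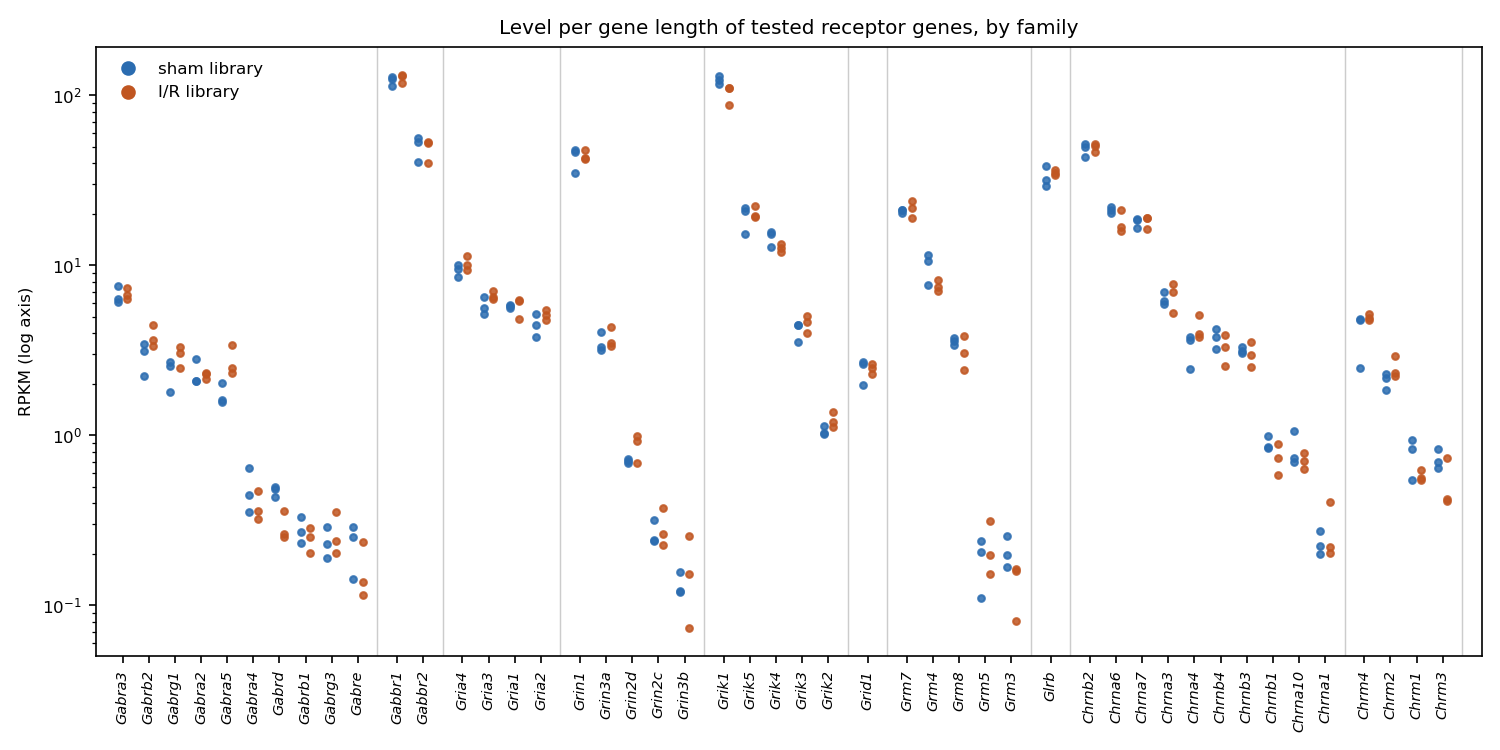
Level of the tested receptor genes reported here in every library, in RPKM on a log axis, grouped by family and ordered by mean level, with sham libraries in blue and I/R libraries in orange. Gabbr1 (125 RPKM) and Grik1 (113 RPKM) lie highest, and sham and I/R points of most genes share a range.

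Summed by family, GABA-B subunits came to 172 ± 15.9 RPKM in sham and 176 ± 14.8 RPKM in I/R ganglia (SD, n = 3 each). Kainate subunits came to 163 ± 11.3 and 142 ± 15.5 RPKM, nicotinic subunits to 106 ± 7.93 and 105 ± 9.85 RPKM, and GABA-A and GABA-rho subunits to 60.1 ± 6.73 and 63.3 ± 6.44 RPKM. NMDA subunits summed to 47.7 ± 7.05 and 49.5 ± 2.87 RPKM, metabotropic glutamate receptors to 34.9 ± 2.50 and 32.6 ± 3.51 RPKM, glycine subunits to 33.4 ± 4.78 and 35.1 ± 1.21 RPKM, and AMPA subunits to 25.4 ± 2.01 and 27.8 ± 2.08 RPKM. Muscarinic receptors came to 7.68 ± 1.45 and 8.59 ± 0.582 RPKM. The sham and I/R libraries overlapped in each of these 9 sums.

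Most families were carried by a few subunits. Gabbr1 held 71.8% of the GABA-B sum. Grik1 held 76.0% ± 1.98 of the kainate sum in sham and 72.5% ± 1.86 in I/R ganglia. Grin1 held 89.8% of the NMDA sum and Grin3a, a subunit that lowers calcium flow through the channel, 7.49%, while the classical glutamate-binding partners Grin2a and Grin2b did not pass the filter on low counts. Of the AMPA sum Gria4 held 37.0%, Gria3 23.3% and Gria1 21.7%, whose order differed between libraries, and Gria2, the subunit that makes AMPA receptors impermeable to calcium, 18.0%. Glrb held 99.7% of the glycine receptor sum, against alpha subunits close to 0. Chrnb2 held 46.4% of the nicotinic sum. Chrna6 held 19.9% ± 0.842 of it in sham and 17.1% ± 1.30 in I/R ganglia (SD, n = 3 each), with no overlap between the groups, against 16.96% ± 0.444 and 17.3% ± 0.714 for Chrna7, so that Chrna6 was above Chrna7 in sham and the pair did not differ beyond their spread in I/R. Chrm4 held 54.5% and Chrm2 28.7% of the muscarinic sum.

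**Figure D2:**
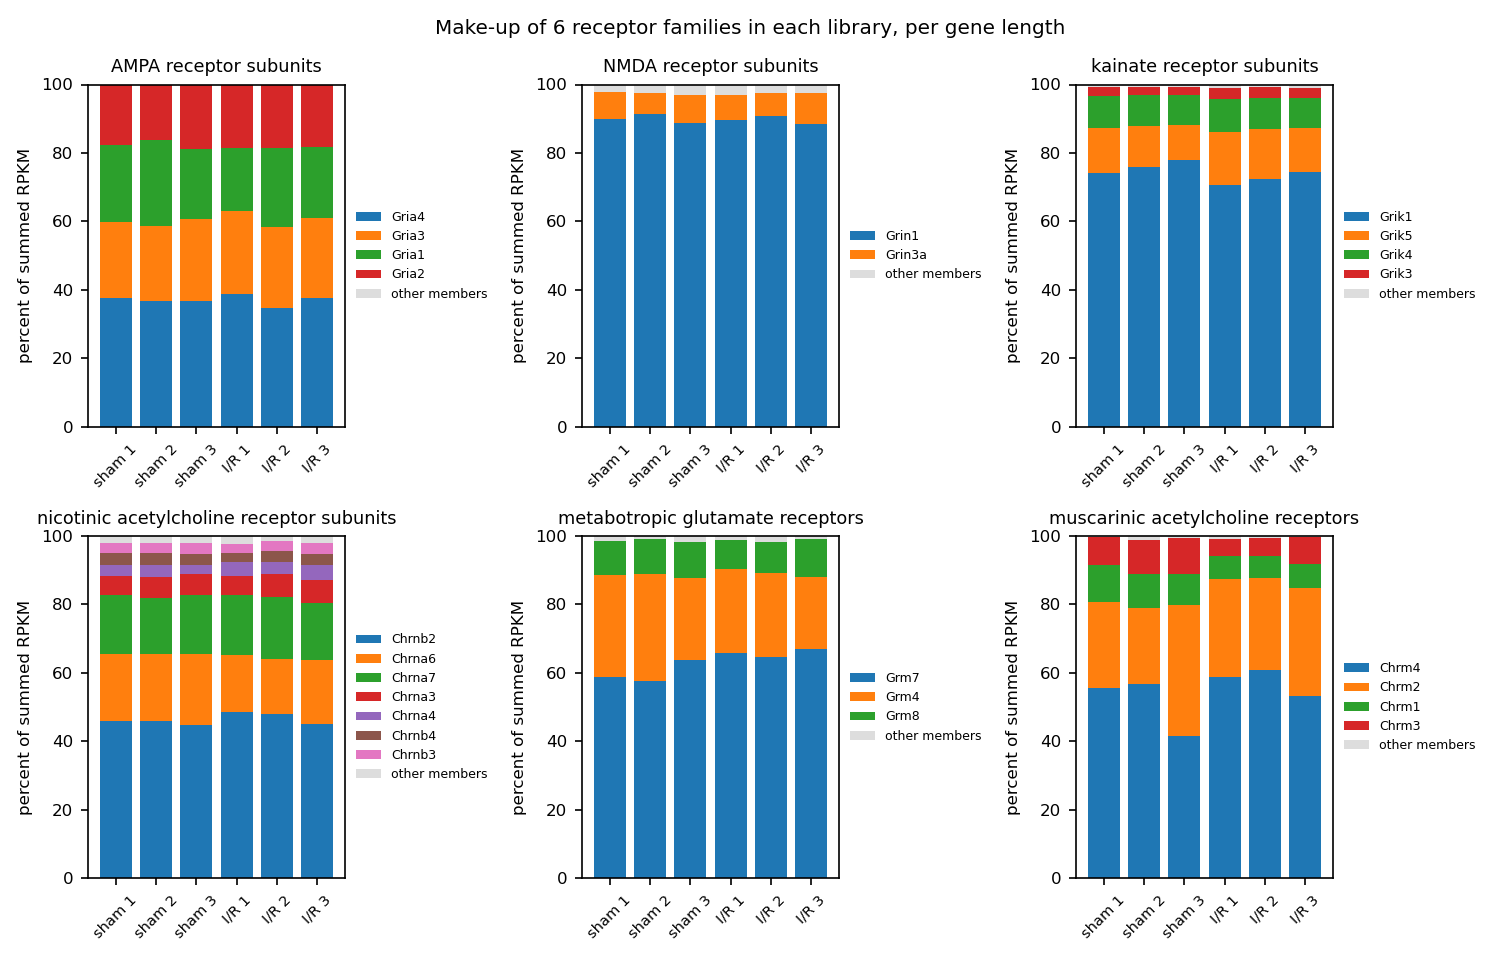
Share of each subunit in the summed RPKM of its family, in percent, for 6 families and each of the 6 libraries, with subunits of low share pooled as other members. Grin1, Grik1, Grm7, Gria4, Chrnb2 and Chrm4 hold the largest share of their families in every library, with Grin1 at a mean of 89.8% of the NMDA sum and Grik1 at 70.6% to 78.1% of the kainate sum.

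No receptor gene was called between I/R and sham ganglia. With edgeR's quasi-likelihood test and Benjamini-Hochberg adjustment over all 16346 genes tested, 0 of the 52 member rows that passed the filter on low counts had an adjusted p under 0.05, where 1.15% of all genes tested were called. Unadjusted, 3 members had a p under 0.05, or 5.77% against 10.5% of all genes tested. Of the 3, 1 was higher and 2 were lower, where 5.7% of all genes tested were higher and 4.8% lower at that p. DESeq2 and limma-voom each called 0 members. At an unadjusted p under 0.05 DESeq2, run without the filter, had 4 of 72 members (5.56%, against 4.76% of all genes tested), and limma-voom had 4 of 52 (7.69%, against 10.5%). The lowest adjusted p by edgeR was 0.188. Fold changes of the 52 rows ran from -0.69 (Gabrd) to 0.65 (Gabra5) on the log2 scale, 32 above 0 and 20 below, with a median of 0.04 against 0.00 over all genes tested. The 95% interval of the fold change lay within 2-fold either way for 42 of the 52 rows (80.8%, against 85.7% of all genes tested), and within 1.5-fold for 29 (55.8%, against 64.0%). Where the interval was not within 2-fold, a 2-fold change in at least 1 direction could not be set aside at this depth and sample size.

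**Figure D3:**
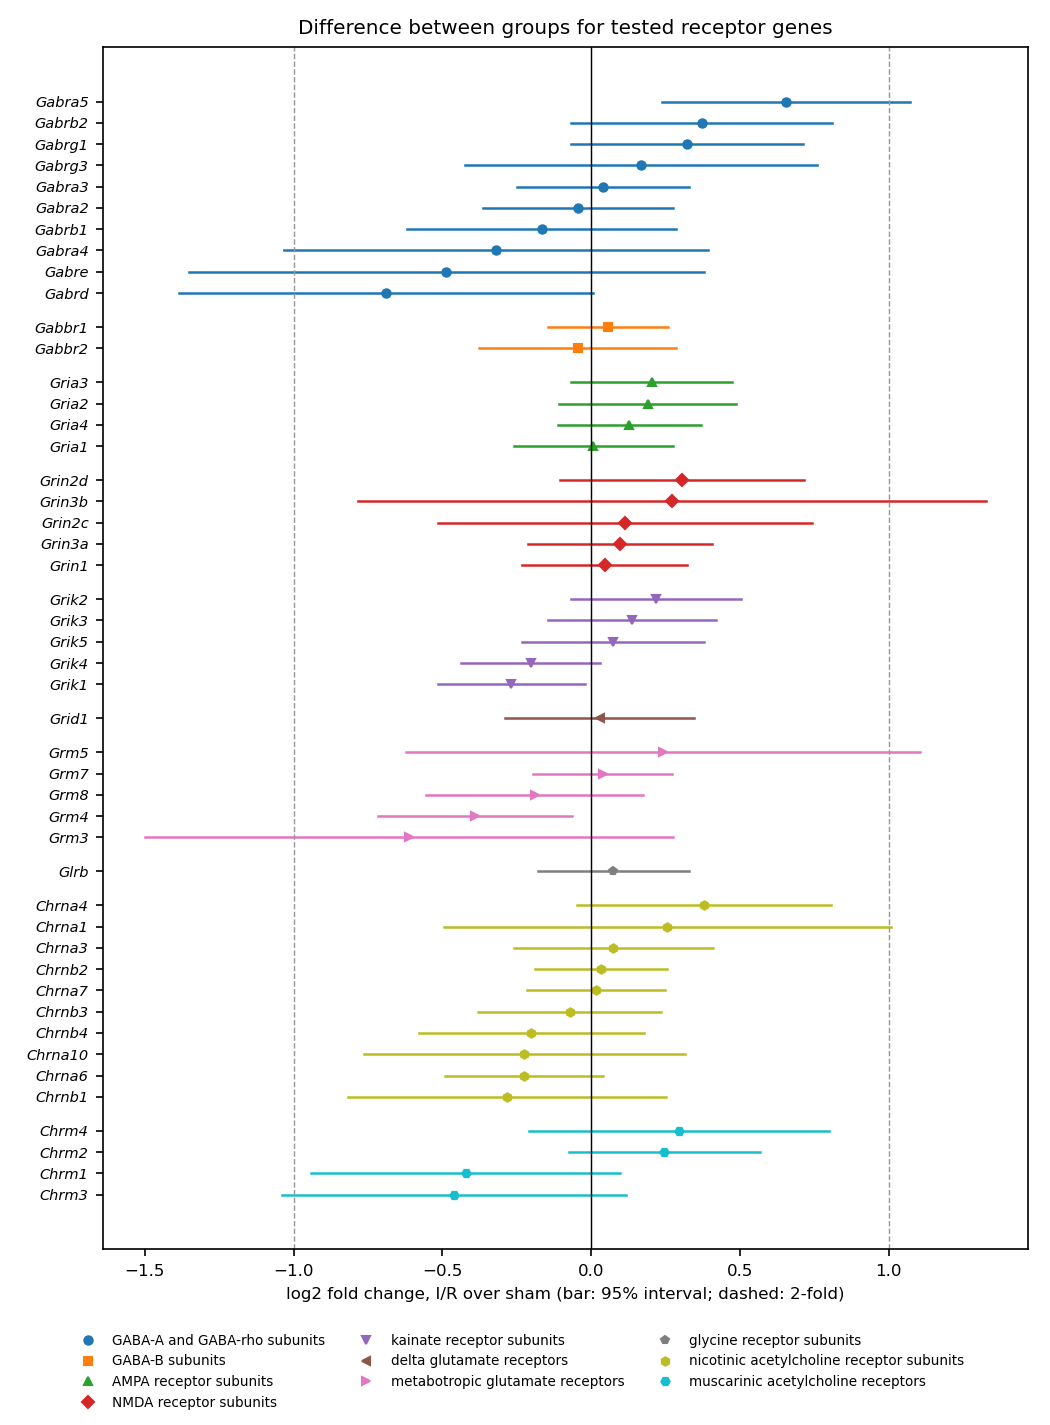
Log2 fold change of the tested receptor genes reported here, I/R over sham, with its 95% interval from edgeR, by family, with dashed lines at 2-fold; Grin1os is not drawn. The interval of Gabra5 lies above 0 (0.24 to 1.07) and those of Grik1 (-0.51 to -0.02) and Grm4 lie below 0, and no gene had an adjusted p under 0.05.

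In 5 of the 52 rows the sham and I/R libraries did not overlap in CPM (9.62%, against 17.1% of all genes tested), with 2 above sham (Gabra5 and Chrna4, where 9.23% of all genes tested lay above) and 3 below (Gabrd, Grik1 and Grm3, where 7.83% lay below). Gabrd, Chrna4 and Grm3 are named here after their values were seen. RefSeq promoter windows (GRCm38.p6) were found for 54 of the 75 rows, and the 250 bases before the start site are printed for the 3 of those 5 genes that have one, to show the kind of sequence that lies there. Capitals mark the GC box, GGGCGG on either strand. Each gene lies on the minus strand and is written 5′ to 3′, Gabra5 at chr7:57510060-57510309, Grm3 at chr5:9725353-9725602 and Chrna4 at chr2:181039178-181039427.
Gabra5: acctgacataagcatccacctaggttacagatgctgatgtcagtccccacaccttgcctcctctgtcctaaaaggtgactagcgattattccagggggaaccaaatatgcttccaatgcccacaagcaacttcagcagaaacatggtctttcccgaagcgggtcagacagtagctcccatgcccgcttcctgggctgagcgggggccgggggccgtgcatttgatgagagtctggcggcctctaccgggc
Grm3: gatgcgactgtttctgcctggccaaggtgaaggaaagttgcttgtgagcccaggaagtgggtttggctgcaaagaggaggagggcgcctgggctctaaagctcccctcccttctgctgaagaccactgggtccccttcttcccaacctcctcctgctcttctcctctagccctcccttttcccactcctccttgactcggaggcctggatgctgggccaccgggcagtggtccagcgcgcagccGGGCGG
Chrna4: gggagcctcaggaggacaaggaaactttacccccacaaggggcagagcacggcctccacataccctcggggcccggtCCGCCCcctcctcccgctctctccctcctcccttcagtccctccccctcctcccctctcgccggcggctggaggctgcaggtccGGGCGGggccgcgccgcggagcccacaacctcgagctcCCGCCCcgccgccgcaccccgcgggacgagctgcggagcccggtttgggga
The windows differ in base composition, with 56.4% G or C and 9 CpG pairs for Gabra5, 62.4% and 8 for Grm3, and 74.4% and 24 for Chrna4. Chrna4 has 3 GC boxes, Grm3 has 1 and Gabra5 has none. Among windows of the same 250 bases, a GC box was found in 29 of 62 member windows (46.8%) and in 32.7% of 32851 windows of all genes, whose median base composition was 59.0% and 52.4% G or C. The other motifs searched on both strands were the AP-1 site TGANTCA (3 member windows, 4.84%, against 6.75%), the cAMP response element TGACGTCA (0 member windows against 1.55%) and the TATA box TATAAA (9.68% against 12.4%), and no motif contains another. These counts describe letters in a window and no binding was measured.

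Gabra5 encodes a GABA-A alpha subunit found mostly outside synapses, where it carries a tonic current. Its level was 5.40, 4.20 and 4.32 CPM in the 3 sham libraries and 6.62, 6.25 and 9.03 CPM in the 3 I/R libraries. The I/R libraries lay above the sham libraries, with I/R 3 the highest. The log2 fold change was 0.65 ± 0.19 (SE), or 1.57-fold, with an unadjusted p of 0.00588 and an adjusted p of 0.188 by edgeR. Over the alternatives its adjusted p ran from 0.0657 to 0.974. As a share of the GABA-A sum, Gabra5 went from 2.92% ± 0.556 in sham to 4.29% ± 0.481 in I/R libraries (SD, n = 3 each), and these shares did not overlap either.

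Gabrd, the delta subunit of another extrasynaptic GABA-A receptor, was at 0.835, 0.95 and 0.926 CPM in sham against 0.692, 0.484 and 0.502 CPM in I/R libraries. Its I/R libraries lay below the sham libraries, on 10 to 19 counts each. The log2 fold change was -0.69 ± 0.31 with an adjusted p of 0.479. Of the 13 tested GABA-A subunits 6 had a fold change above 0 and 7 below, with a median log2 fold change of -0.01. The 6 not tested were Gabrr1, Gabrr2, Gabrr3, Gabrq, Gabrp and Gabra6.

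Both GABA-B subunits were among the most abundant receptor RNAs in each group. Gabbr1 was at 656, 670 and 596 CPM in sham against 623, 683 and 695 CPM in I/R libraries, a log2 fold change of 0.06 ± 0.09 with a 95% interval of -0.14 to 0.26. Gabbr2, which couples the receptor to G proteins, was at 308, 323 and 233 CPM in sham against 229, 307 and 301 CPM in I/R libraries, a log2 fold change of -0.04 ± 0.15. Its lowest values were those of sham 3 and I/R 1, 1 library of each group. Scn10a, the sodium channel of nociceptors, was lowest in the same 2 libraries, with 1181 CPM for sham 3 and 1026 CPM for I/R 1, against 1433 to 1634 CPM in the other 4. The part of neuron composition in the Gabbr2 values was not tested.

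Grik1 builds the kainate receptors of small-diameter sensory neurons. It was at 362, 384 and 345 CPM in sham against 257, 324 and 326 CPM in I/R libraries. The I/R libraries lay below the sham libraries, with I/R 1 lowest. The fitted log2 fold change was -0.27 ± 0.11, or 0.831-fold (95% interval 0.701 to 0.985), with an unadjusted p of 0.0355 and an adjusted p of 0.428. Without I/R 1, the library in which Scn10a was also lowest, the log2 fold change was -0.16. Grik5 and Grik4, the high-affinity subunits that need a partner such as Grik1, overlapped between groups. Grik5 was at 81.9, 78.9 and 57.8 CPM in sham against 72.5, 84.0 and 73.5 CPM in I/R libraries, and Grik4 was at 92.4, 89.5 and 75.7 CPM and 70.2, 78.7 and 74.7 CPM. Their log2 fold changes were 0.07 ± 0.14 and -0.20 ± 0.10 (adjusted p = 0.551 for Grik4). Of the 5 kainate subunits 3 had a fold change above 0 and 2 below. As a share of the kainate sum Grik3, a low-affinity subunit, was 2.37% to 2.68% in sham and 3.13% to 3.33% in I/R libraries, which did not overlap, while the Grik1 shares did (74.1% to 78.1% and 70.6% to 74.3%).

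The 4 AMPA subunits each had a log2 fold change above 0, between 0.01 and 0.20, with overlapping groups and a lowest adjusted p of 0.621. Gria1, the lowest of them, changed sign under several alternatives, as given below, and the other subunits kept theirs. Over all genes tested 50.0% lay above 0. Gria4 was at 51.2, 45.9 and 54.1 CPM in sham against 53.9, 50.5 and 60.7 CPM in I/R libraries. Gria3 was at 17.2, 15.9 and 20.1 CPM in sham against 19.6, 20 and 21.8 CPM in I/R libraries, a log2 fold change of 0.20 ± 0.12, and Gria1 was at 31.9, 32.5 and 31.0 CPM and 26.7, 34.8 and 34.4 CPM. For each of the 4 AMPA subunits the 95% interval lay within 1.5-fold either way.

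Of the 7 NMDA subunits 5 were tested, and each of the 5 had a log2 fold change above 0, from 0.05 to 0.31, with overlapping groups and a lowest adjusted p of 0.626. Only Grin2d kept this sign under every alternative (0.18 to 0.45). Grin1, without which no NMDA receptor forms, was at 198, 204 and 150 CPM in sham against 181, 205 and 184 CPM in I/R libraries, a log2 fold change of 0.05 ± 0.12. Sham 3 held its lowest value. Grin3a was at 30.2, 23.7 and 24.7 CPM in sham against 25.1, 26.3 and 32.7 CPM in I/R libraries, and Grin2d, a glutamate-binding subunit that gives slow currents, was at 3.58, 3.70 and 3.81 CPM and 4.89, 5.23 and 3.60 CPM. I/R 1 and I/R 2 lay above the sham libraries for Grin2d and I/R 3 lay among them, with a log2 fold change of 0.31 ± 0.18.

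Grid1 encodes a delta receptor, one of the relatives of the glutamate channels that organize synapses. Grid1 was at 15.0, 15.4 and 11.3 CPM in sham against 13.1, 15.1 and 14.2 CPM in I/R libraries (log2 fold change 0.03 ± 0.14). The groups overlapped.

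The 5 metabotropic glutamate receptors tested fell into 2 above 0 and 3 below, with a median log2 fold change of -0.19. Grm4 and Grm7 are presynaptic receptors that lower transmitter release. Grm4 was at 49.0, 52.9 and 35.5 CPM in sham against 32.4, 37.9 and 34.4 CPM in I/R libraries. Sham 3 lay among the I/R libraries while sham 1 and sham 2 lay above them. The log2 fold change was -0.39 ± 0.15, with an unadjusted p of 0.0233 and an adjusted p of 0.363. Without sham 3 it was -0.54 with an adjusted p of 0.0574, the lowest of any member under any alternative, and in that fit 10 of the 52 members had an unadjusted p under 0.05 (19.2%, against 13.2% of all genes tested), where the fit with all 6 libraries had 3 (5.77% against 10.5%). Grm7 was at 66.1, 66.4 and 64.0 CPM in sham against 59.3, 68.1 and 74.5 CPM in I/R libraries, a log2 fold change of 0.04 ± 0.10. Grm8, of the same presynaptic group, was at 13.8, 14.4 and 13.1 CPM in sham against 9.39, 11.8 and 14.9 CPM in I/R libraries. As a share of the metabotropic sum Grm7 took 57.7% to 63.8% in sham and 64.8% to 67.0% in I/R libraries, which did not overlap, and Grm4 took 24.0% to 31.2% and 21.1% to 24.5%.

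Grm3, a receptor of glia and presynaptic terminals, was at 0.786, 0.600 and 0.514 CPM in sham against 0.247, 0.484 and 0.502 CPM in I/R libraries. These are 5 to 16 counts a library. Sham 3 and I/R 3 nearly met, at 10 and 11 counts, so that the groups did not overlap in CPM but did in counts. The log2 fold change of -0.61 ± 0.40 had an adjusted p of 0.653 by edgeR. Grm5 (log2 fold change 0.24 ± 0.39) was at a similar level, and Grm2 and Grm6 did not pass the filter.

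Glrb, which ties glycine receptors to their scaffold, was the only glycine receptor gene to pass the filter. It was at 96.1, 89.0 and 117 CPM in sham against 106, 102 and 110 CPM in I/R libraries, with a log2 fold change of 0.07 ± 0.11 and groups that overlap. The glycine-binding alpha subunits had 0 to 7 counts a library. Glra1 had 11 counts over the sham and 2 over the I/R libraries, Glra2 had 9 and 4, Glra3 had 1 and 3, and Glra4 had none.

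Chrnb2, the beta subunit of most neuronal nicotinic receptors, was at 174, 181 and 152 CPM in sham against 161, 177 and 180 CPM in I/R libraries, a log2 fold change of 0.03 ± 0.10. Chrna6, an alpha subunit that pairs with it, was at 61.3, 63.8 and 59.2 CPM in sham against 46.4, 49.2 and 62.0 CPM in I/R libraries. I/R 1 and I/R 2 lay below the sham libraries and I/R 3 among them, and the log2 fold change of -0.23 ± 0.12 had an adjusted p of 0.560. Chrna7, which forms receptors on its own, was at 39.0, 38.6 and 34.6 CPM in sham against 34.2, 39.6 and 39.7 CPM in I/R libraries (log2 fold change 0.02 ± 0.10). Chrna4, the common partner of Chrnb2 in the brain, was at 7.51, 7.80 and 5.09 CPM in sham against 8.15, 7.84 and 10.5 CPM in I/R libraries. The groups did not overlap, although sham 2 and I/R 2 nearly met, and the log2 fold change of 0.38 ± 0.19 had an adjusted p of 0.542. Without sham 3 it was 0.21. Of the 10 tested nicotinic subunits 5 lay above 0 and 5 below.

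Of the muscle-type nicotinic subunits 2 were tested. The libraries with the highest muscle sums were sham 1 and sham 3. Chrna1 was at 0.982, 1.2 and 0.874 CPM in sham against 0.890, 0.968 and 1.78 CPM in I/R libraries, highest in I/R 3. Chrnb1 was at 1.82, 2.15 and 1.85 CPM in sham against 1.93, 1.26 and 1.60 CPM in I/R libraries. Chrnd had 2 counts in sham 1 and none elsewhere, Chrne had 0 to 4 counts a library and Chrng had none. The part of muscle RNA in these values was not tested.

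Chrm4 and Chrm2, muscarinic receptors that inhibit through G proteins, led their family. Chrm4 was at 6.92, 6.85 and 3.60 CPM in sham against 6.87, 7.41 and 7.07 CPM in I/R libraries, so that sham 3 alone stood low and the log2 fold change of 0.30 ± 0.23 had an adjusted p of 0.707. Chrm2 was at 12.4, 10.5 and 13.0 CPM in sham against 13.1, 12.7 and 16.7 CPM in I/R libraries. Chrm1 was at 3.93, 3.45 and 2.26 CPM in sham against 2.27, 2.32 and 2.60 CPM in I/R libraries, where sham 3 again lay with the I/R libraries. Chrm3 had a log2 fold change of -0.46 ± 0.26, and Chrm5 was not tested.

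**Figure D4:**
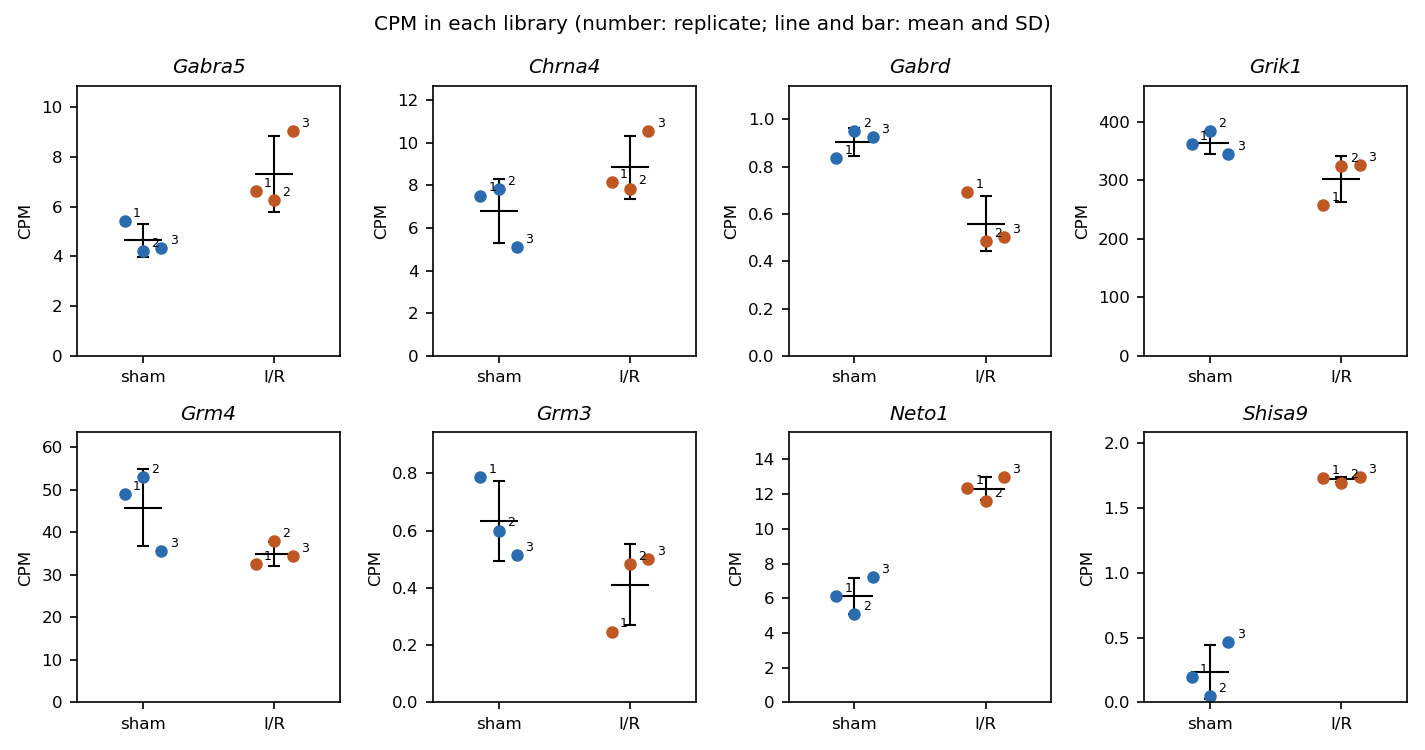
CPM of 6 receptor genes and the 2 called partner genes in each library, with the replicate number beside each point and the mean and SD of each group (n = 3) as a line and bar. Sham and I/R points do not overlap for Gabra5, Chrna4, Gabrd, Grik1, Grm3, Neto1 and Shisa9, although they nearly meet for Chrna4 and Grm3. Neto1 lay at 5.10 to 7.20 CPM in sham against 11.6 to 13.0 CPM in I/R libraries. The points overlap for Grm4.

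The 23 rows not tested held few counts. Chrna5, an accessory nicotinic subunit, had 2, 2 and 4 counts in the sham and 7, 7 and 14 counts in the I/R libraries. The groups did not overlap, and the ratio of the depth-scaled sums was 3.33 (exact 95% interval 1.48 to 8.46). Gabrq, the theta subunit of GABA-A receptors, went the other way with 7, 4 and 2 counts in sham and 0, 1 and 0 counts in I/R libraries, a ratio of 0.0733 (0.00172 to 0.488). Glra1 gave 7, 1 and 3 against 0, 0 and 2 counts, a ratio of 0.173 (0.0186 to 0.793), with its highest counts in sham 1 and sham 3, the libraries with the highest spinal cord glia sums. The part of spinal cord RNA in the Glra1 values was not tested. These intervals cover counting error only and leave out the spread between mice. Grin2a had 6, 11 and 4 counts in sham and 5, 2 and 6 counts in I/R libraries, and Grin2b had 0 to 3 counts a library. Chrna5, Gabrq, Glra1, Grin2a and Grin2b are named here after their values were seen. The opposite-strand rows were low too, with Grin1os at 0.491 to 1.1 CPM and Chrna1os at 5 to 17 counts a library. The strand setting of the counting is not given in the sources used here, so their reads and those of Grin1 and Chrna1 cannot be told apart with certainty.

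Receptors depend on auxiliary, anchoring and assembly proteins and on transmitter supply, and 75 such genes in 7 lists were examined beside them. Of these, 70 were tested and 2 were called, both higher after I/R and both auxiliary subunits of glutamate channels, where 1.15% of all genes tested were called (0.722% higher). Unadjusted, 10 of 70 had a p under 0.05 (7 higher, 3 lower), or 14.3% against 10.5% of all genes tested. The other 6 lists held 0 called genes by edgeR. In all, 38 of the 70 lay above 0 and 32 below, with a median log2 fold change of 0.02.

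Neto1, which binds kainate and NMDA receptors and slows kainate currents, was at 6.14, 5.10 and 7.20 CPM in sham against 12.4, 11.6 and 13.0 CPM in I/R libraries. The lowest I/R library lay well above the highest sham library. It rose 2.00-fold (95% interval 1.59 to 2.52), a log2 fold change of 1.00 ± 0.15 with an adjusted p of 0.0107. Its relative Neto2 was at 13.4, 13.3 and 18.6 CPM in sham against 17.1, 17.4 and 20.8 CPM in I/R libraries, with overlapping groups and an adjusted p of 0.564. Shisa9, which binds AMPA receptors and changes how they desensitize, was at 0.196, 0.05 and 0.463 CPM in sham against 1.73, 1.69 and 1.73 CPM in I/R libraries. Those are 1 to 9 counts in the sham and 35 to 38 counts in the I/R libraries. Shisa9 passed the filter on low counts only through its I/R libraries. It rose 7.17-fold (3.48 to 14.8), a log2 fold change of 2.84 ± 0.47 with an adjusted p of 0.0178.

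Both calls were kept by DESeq2 (adjusted p = 7.31e-05 for Neto1 and 0.000649 for Shisa9) and by limma-voom (0.0113 and 0.0193). Both were lost with the replicate block (adjusted p = 0.0589 and 0.150). Each was lost in turn without sham 1 (0.0767 and 0.114), without I/R 2 (0.0542 and 0.0949) and without I/R 3 (0.0630 and 0.107), with log2 fold changes of 0.96 to 1.02 for Neto1 and 2.72 to 2.84 for Shisa9. With the muscle level as a covariate the adjusted p was 0.175 and 0.187 at log2 fold changes of 1.26 and 4.17, and with sham 2, the sham library with little muscle RNA, as the only control it was 0.0917 and 0.0565 at 1.25 and 4.92. Neto2 is named here for comparison, after its value was seen.

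Other partners of glutamate channels gave smaller fold changes, and none was called. Nptx2, a secreted pentraxin that clusters AMPA receptors, was at 120, 122 and 96.2 CPM in sham against 156, 156 and 140 CPM in I/R libraries, which did not overlap. Its log2 fold change was 0.42 ± 0.11 with an adjusted p of 0.146, and with no filter on low counts the adjusted p was 0.0438. Cnih2, an AMPA auxiliary subunit, was at 11.4, 11.1 and 9.20 CPM in sham against 14.3, 12.7 and 12.7 CPM in I/R libraries (0.33 ± 0.13, adjusted p = 0.397). Dlg4, the scaffold PSD-95, had the highest mean level per length of the ionotropic glutamate list over the 6 libraries (59.6 ± 6.24 RPKM), which did not differ beyond its spread from that of Nptxr, a pentraxin receptor (57.4 ± 6.21 RPKM). The log2 fold change of Dlg4 was -0.03 ± 0.12. Homer2, the highest of the metabotropic list, was at -0.06 ± 0.09, Lhfpl4, which anchors GABA-A receptors, at -0.06 ± 0.08, and Kctd8, a GABA-B auxiliary subunit, at 0.16 ± 0.10.

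Among the nicotinic partners Lynx1, a membrane-tethered modulator of nicotinic receptors, was the highest per length, at 654, 666 and 619 CPM in sham against 652, 649 and 637 CPM in I/R libraries. Its log2 fold change was 0.00 ± 0.08. Lypd1, of the same protein family, was at 17.3, 22.3 and 19.6 CPM in sham against 14, 15.9 and 15.3 CPM in I/R libraries, a log2 fold change of -0.39 ± 0.13 (adjusted p = 0.260). Lrp4, the agrin receptor of the neuromuscular junction, was at 16.8, 17 and 14.8 CPM in sham against 10.7, 12.9 and 12.7 CPM in I/R libraries, a log2 fold change of -0.42 ± 0.12 (adjusted p = 0.212). Neither pair of groups overlapped.

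Of the genes that make, load or break down the transmitters, 14 of 19 were tested and 0 were called by edgeR. Glul, the glutamine synthetase of satellite glia, was the highest per length and lay at 413, 427 and 426 CPM in sham against 567, 515 and 501 CPM in I/R libraries. The groups did not overlap, and the log2 fold change of 0.32 ± 0.09 had an adjusted p of 0.152. Summed satellite glia markers lay lower in I/R libraries, as given above, but the groups overlap without Fabp7. Fabp7 was the only 1 of these markers called, at a log2 fold change of -0.99. The part of cell composition in the Glul values was not tested.

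The chloride transport genes set the direction of GABA and glycine currents. Slc12a2, which encodes the importer NKCC1, was at 119, 108 and 131 CPM in sham against 133, 136 and 154 CPM in I/R libraries, a log2 fold change of 0.24 ± 0.10 (adjusted p = 0.455). Stk39, the kinase SPAK that activates it, was at 147, 140 and 150 CPM in sham against 168, 170 and 190 CPM in I/R libraries, a log2 fold change of 0.27 ± 0.09 (adjusted p = 0.283). Slc12a5, the neuronal exporter KCC2, was at 2.90, 2.05 and 1.34 CPM in sham against 0.988, 1.26 and 1.28 CPM in I/R libraries, a log2 fold change of -0.83 ± 0.31 (adjusted p = 0.363). For each of the 3 the groups did not overlap, as in 14 of the 70 tested partner genes (20%) and 17.1% of all genes tested, and none was called. Slc12a5 was highest in sham 1, the library with the highest spinal cord glia sum. It was lowest of the sham libraries in sham 3, where that sum was the second highest. The part of spinal cord RNA in the Slc12a5 values was not tested. The fourth gene, Wnk1, which acts upstream of Stk39, was at 0.02 ± 0.10.

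**Figure D5:**
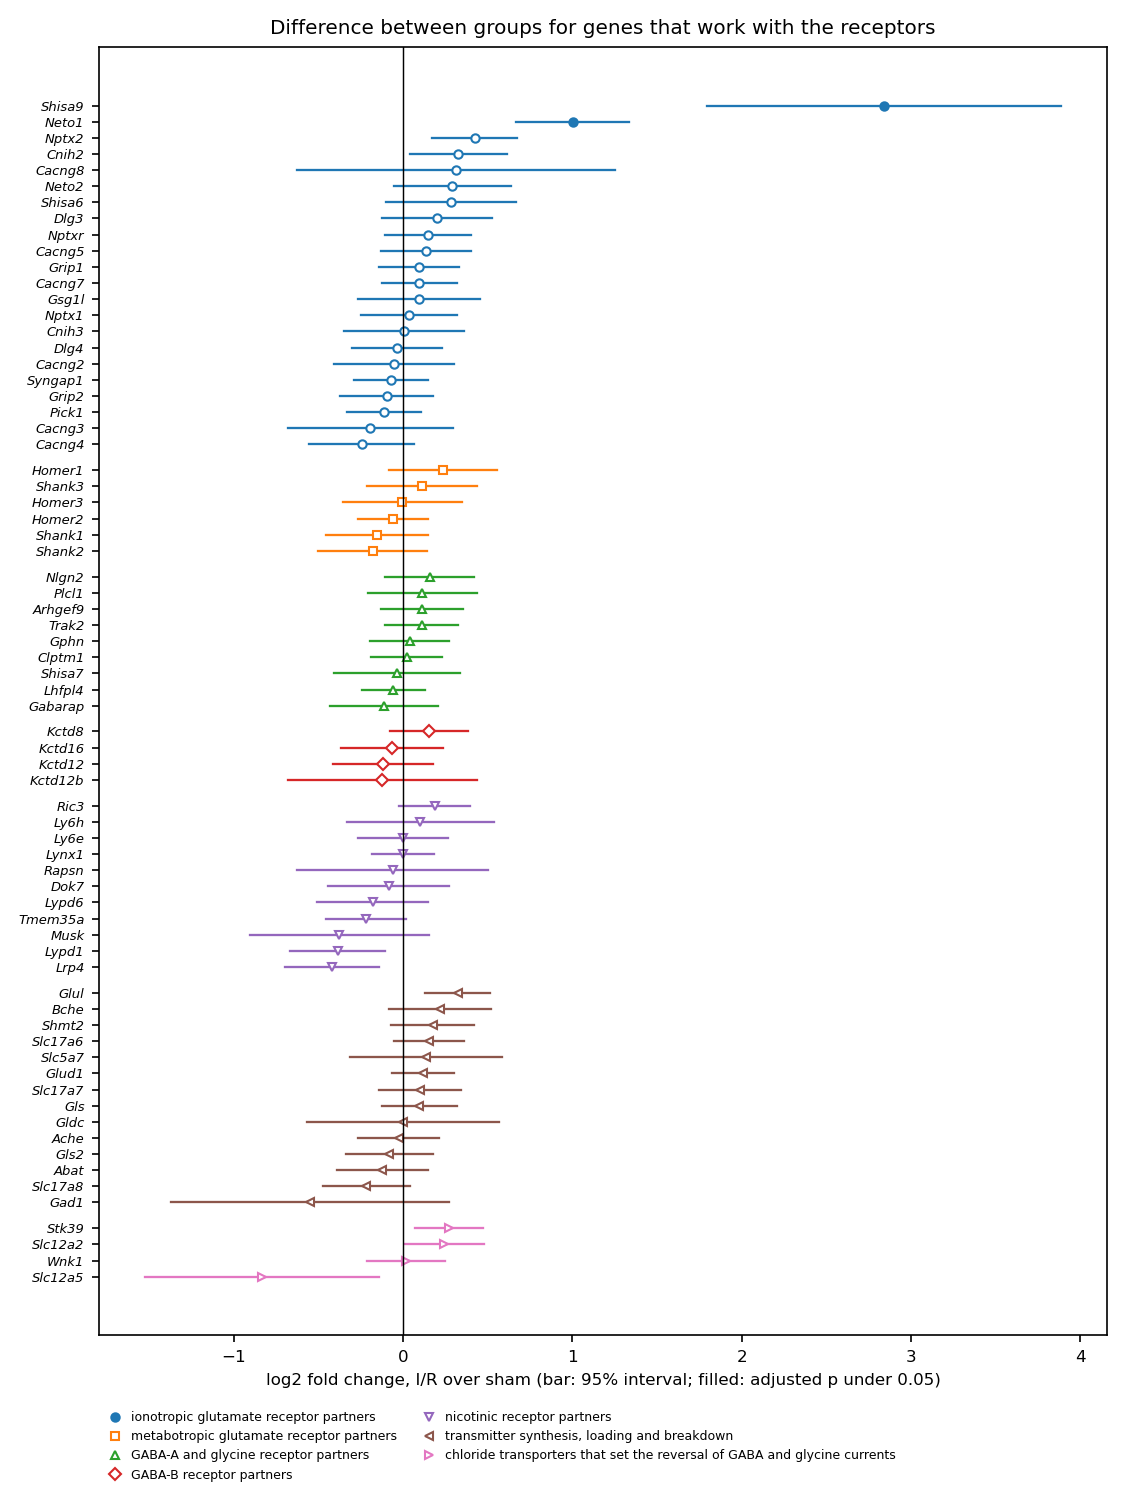
Log2 fold change of each tested partner gene, I/R over sham, with its 95% interval from edgeR, in 7 lists, with filled symbols for an adjusted p under 0.05. Shisa9 (2.84) and Neto1 (1.00) are filled and the other genes are not.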

How the data were processed

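The authors deposited 1 table of expected counts per Ensembl gene and library, estimated read counts that were not scaled to depth. The submitters' processing notes list the assembly GRCm39 and the tools StringTie, HISAT2 and fastp, with no role or version, and per the labels' protocols libraries were made with a stranded mRNA kit from TRIzol-extracted RNA. The program that counted reads is not given in the sources used here. Between 10.7% and 11.5% of values in a library were not whole. Whole counts had been assumed, so values were rounded and the test was kept. The authors' deposited group means were not used, and their gene length column served for RPKM only.

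Genes were tested with edgeR 4.0.16 (R 4.3.3): TMM, the filter on low counts (16346 genes), the quasi-likelihood test on 3 sham against 3 I/R libraries, and Benjamini-Hochberg adjustment, called at an adjusted p under 0.05. The test was checked on simulated data. Fold changes are I/R over sham, and levels are CPM or RPKM with TMM library sizes. Alternatives were RLE and upper-quartile scaling, DESeq2 1.42.0, limma-voom (limma 3.58.1), 2 other filters, a replicate block, a muscle covariate, sham 2 as the only control, and leaving out each library. Libraries of 1 group differed by more than sampling noise (chi-square per degree of freedom 4.26 to 30.5).

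The members, lists and tests were chosen with earlier results of these data known. Named are members with an unadjusted p under 0.05, the 3 highest per length in each family, members with 0 counts, and of the partner lists the called genes, those with an unadjusted p under 0.05 and the highest per length. Other genes were named after their values were seen. Some members that this rule names are not reported here, although counts and sums over the set include them. Promoter windows are from RefSeq (GRCm38.p6), matched by symbol. The genome at hand was not GRCm39, so gene coordinates are not given.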

Additional observations from a re-analysis of the deposited data

How the results depend on the processing

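No member was called under any of the 15 alternatives. Of the 70 tested partner genes, 2 were called with all 6 libraries and 0 with the replicate block, with the muscle covariate and with sham 2 alone; leaving out 1 library gave 0 to 2, with 0 without sham 1, I/R 2 or I/R 3. Of 613 values for 41 named genes, 554 kept direction and side of the threshold, 12 lost it (Neto1 and Shisa9), 1 passed it (Nptx2 without a filter) and 46 changed sign. The cause was not tested. Those 46 belong to 13 genes with log2 fold changes of at most 0.0968 either way, so no direction is read from them. Members outside the 41 also changed sign, some from larger log2 fold changes. Examples are Grm5 (0.24, range -0.11 to 1.17 over the settings) and Chrna1 (0.26, range -0.13 to 0.43). No direction is read from such members either. Gria1 changed sign to -8.4e-05 with RLE, -0.0019 with upper-quartile scaling, -0.0017 with DESeq2, -0.0021 with limma-voom, -0.0019 with the replicate block, -0.011 with the CPM filter (Chrna7 -0.0024) and -0.049 with sham 2 alone. Lynx1 went to 0.00044 with limma-voom and 0.00053 with the block. With the muscle covariate the values were -0.048 for Grin1, -0.060 for Grid1 and -0.036 for Chrnb2. With sham 2 alone they were -0.030 for Gabbr1, -0.12 for Grin1, -0.065 for Grik5, -0.14 for Grid1, -0.0061 for Grm7, -0.090 for Chrnb2 and -0.054 for Chrna7. Leaving out 1 library gave -0.038 to 0.084 for Chrna7, -0.038 to 0.084 for Chrnb2, -0.15 to 0.039 for Dlg4, -0.18 to 0.079 for Gabbr2, -0.0098 to 0.20 for Glrb, -0.078 to 0.12 for Gria1, -0.10 to 0.11 for Grid1, -0.069 to 0.17 for Grik5, -0.082 to 0.12 for Grin1, -0.029 to 0.21 for Grin3a, -0.040 to 0.12 for Grm7 and -0.031 to 0.020 for Lynx1.

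Over all genes, 188 calls became 494 without a filter, 301 with DESeq2, 63 with the block, 27 with the covariate, 32 with sham 2 alone, 93 without sham 1, 87 without I/R 2 and 98 without I/R 3. Whether replicate numbers pair the samples was not settled. Deviations of same-numbered libraries from their group means correlated at -0.11, 0.14 and -0.12 across genes, against -0.20 to 0.28 for other pairs. With 3 libraries a group these deviations depend on one another, so they cannot decide it. No member was called with the block. Where 1 sham library is left, it is assumed to vary like the I/R libraries. Scaling each library to a fixed sum in place of TMM keeps the order of levels within a library by construction. Depth limits the 23 untested rows and those near 1 CPM, whose intervals are wide.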

Other observations

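Several transmitter genes of central neurons were listed with few counts and in only some libraries. Chat, which makes acetylcholine, had 8, 0 and 4 counts in the sham libraries and none in the I/R libraries. Slc18a3, which loads acetylcholine into vesicles, had 20, 0 and 9 counts in sham and 2, 0 and 3 counts in I/R libraries. Slc6a5, the glycine transporter of glycinergic neurons, had 16, 0 and 15 counts in sham and 3, 3 and 2 counts in I/R libraries, and Slc32a1, the vesicular transporter for GABA and glycine, had 1, 0 and 4 counts in sham and none in I/R libraries. These 4 genes had their highest counts in sham 1 and sham 3, the libraries with the highest muscle and spinal cord glia sums. The part of spinal cord RNA in these counts was not tested. Gad2, which makes GABA, went the other way, with 2, 0 and 0 counts in sham and 9, 4 and 7 counts in I/R libraries, a ratio of 9.52 (exact 95% interval 2.31 to 84.0, counting error only). Its relative Gad1 was at 0.982, 0.650 and 1.59 CPM in sham and 0.642, 0.775 and 0.776 CPM in I/R libraries. The 5 genes other than Gad1 did not pass the filter and were not tested.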
